A study of Mus musculus with 20 samples.

Results

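Genes of hepatic glucose production and of insulin signalling were read in liver and white adipose tissue (WAT) of mice with and without CD44, a cell surface receptor for hyaluronan. The 9 genes were G6pc, Pck1, Fbp1, Slc2a2, Foxo1, Insr, Irs1, Irs2 and Akt2, taken by name, by a rule that uses no measured value, although earlier results of these data were known when they were chosen. A probe was assigned to one of them when the array's own gene name, or the current symbol of its accession, was that gene, and the brightest probe stood for each gene. Of the 9 genes, 8 were read, by 12 of the 41174 probes other than controls, and Irs2 was not analysed here because no probe carried its name.

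All mice were males on a C57BL/6 background, 7 months old, fed a high-fat diet (HFD) with 35% fat for 21 weeks, so no group on normal chow enters any comparison. WT(HFD) mice carried the intact Cd44 gene, and CD44KO(HFD) mice lacked it. The labels name no tissue-restricted Cre or promoter, and by the study's methods the deletion had been crossed repeatedly into C57BL/6J. Total RNA of 5 mice of each genotype in each tissue was labelled with Cy3 and hybridised to 20 Agilent arrays, and whether the mice had been fasted before tissue collection is not given in the sources used here.

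When blood glucose falls, the liver makes glucose from lactate, glycerol and amino acids. Pck1 opens this route at phosphoenolpyruvate, Fbp1 removes a phosphate from fructose bisphosphate, and G6pc removes the last phosphate so that free glucose can leave the cell, largely with the carrier GLUT2, the product of Slc2a2. Insulin acts against this through its receptor (Insr), the docking proteins Irs1 and Irs2, and the kinase Akt2, which keeps the transcription factor Foxo1 out of the nucleus, where Foxo1 would raise transcription of G6pc and Pck1. In adipocytes the same relay promotes glucose uptake and restrains lipolysis, and Pck1 serves glyceride synthesis there.

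The upstream sequences of 4 genes are shown because G6pc and Pck1 are the textbook targets of Foxo1 and of cyclic AMP, and because Slc2a2 and Irs1 differed between genotypes in liver. Each is the 250 bases before a RefSeq gene start on build GRCm38.p6, read 5′ to 3′ on the gene's own strand. They lie at chr11:101367466-101367715 for G6pc, chr2:173152823-173153072 for Pck1 and chr3:28697653-28697902 for Slc2a2, all on the plus strand, and at chr1:82291440-82291689 for Irs1, on the minus strand. Capitals mark matches on either strand to the FoxO core GTAAACA, the insulin response core TGTTTTG, the cyclic AMP response element (CRE) TGACGTCA or its half-site TGACG, which is part of the full CRE.
G6pc: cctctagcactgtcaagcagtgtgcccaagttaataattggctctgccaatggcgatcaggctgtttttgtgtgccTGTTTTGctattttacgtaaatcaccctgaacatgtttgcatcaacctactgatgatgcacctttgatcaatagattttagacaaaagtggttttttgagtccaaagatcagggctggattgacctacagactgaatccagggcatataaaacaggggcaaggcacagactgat
Pck1: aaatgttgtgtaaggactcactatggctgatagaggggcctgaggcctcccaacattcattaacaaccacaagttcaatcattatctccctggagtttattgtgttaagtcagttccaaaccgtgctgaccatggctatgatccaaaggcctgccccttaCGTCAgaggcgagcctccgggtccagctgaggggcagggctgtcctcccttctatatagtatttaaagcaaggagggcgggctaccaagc
Slc2a2: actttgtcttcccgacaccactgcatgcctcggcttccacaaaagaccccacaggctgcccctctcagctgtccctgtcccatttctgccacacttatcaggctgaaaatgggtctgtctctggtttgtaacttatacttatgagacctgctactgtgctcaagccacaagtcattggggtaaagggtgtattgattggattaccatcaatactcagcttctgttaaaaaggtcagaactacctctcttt
Irs1: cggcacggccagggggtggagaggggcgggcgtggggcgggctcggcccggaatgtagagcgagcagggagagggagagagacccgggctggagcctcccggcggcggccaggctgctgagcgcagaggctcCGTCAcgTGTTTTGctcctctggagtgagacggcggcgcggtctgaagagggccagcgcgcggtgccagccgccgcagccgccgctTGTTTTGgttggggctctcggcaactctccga

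The G6pc window held 1 match to the insulin response core, 174 to 168 bases before the start, and the Pck1 window held 1 CRE half-site on the opposite strand, 90 to 86 bases before it. Irs1 had 2 insulin response cores, the farther of them 111 bases before the start and 2 bases downstream of a CRE half-site on the opposite strand. The Slc2a2 window held none of the 4 motifs. Of the 9 genes, 8 had an upstream window (Insr had no entry), with 1 window a gene except for Akt2, which had 4. The insulin response core was present in G6pc, Irs1 and Irs2, and in 5.56% of all 32851 windows of this length. The half-site was present in Pck1, Irs1 and Akt2, and in 17.8% of all windows. Akt2 had more chances to match, so a count of genes is not comparable with a share of windows. The FoxO core (3.17% of windows) and the full CRE (1.55%) matched in no window of these genes. A match describes letters in this window and not binding, and the lack of a match does not show a lack of binding.

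Cd44 itself was read first as a check of the labels. Its brightest probe was at 0.48 ± 0.28 (SD, n = 5) in WT(HFD) liver and -3.74 ± 0.41 in CD44KO(HFD) liver, and at 4.07 ± 0.37 and -0.51 ± 0.13 in WAT, and the genotypes did not overlap in either tissue. Another Cd44 probe had log2 fold changes of -4.57 in liver and -4.28 in WAT. The remaining, dim probe did not show the loss, at 0.20 (SE 0.78) in liver, and was too dim to be tested in WAT. Here and below, a level is the log2 processed signal of a probe minus the 75th percentile of its array, so 0 is the signal at that percentile, and levels of different probes are not comparable. A signal was called well above background by the scanner software, and 57.4 to 61.9% of spots were so called on the liver arrays. WT(HFD) WAT replicate 1 stood apart, with 89.5% of spots well above background against 63.2 to 69.5% on the other WAT arrays, and a median correlation with the other WAT arrays of 0.835 against 0.971 to 0.983. The differences of the members and of the lists in WAT are therefore also given without it. Liver and WAT were hybridised on different slides, so slide and tissue cannot be told apart.

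In liver, Slc2a2 and Irs1 rose in CD44KO(HFD) mice, G6pc was higher by more but narrowly missed the threshold, and Pck1, Fbp1, Foxo1, Insr and Akt2 did not pass. A gene passed when its p from limma, adjusted by Benjamini-Hochberg over all 24689 probes tested in liver, was below 0.05. This made 2 of 8 genes, both higher, where 13.6% of all tested probes passed, 7.85% as higher and 5.75% as lower. The log2 fold changes of the 8 genes ran from 0.07 to 0.69 with a median of 0.23, beside a median of 0.08 over all probes tested, and all 8 were above 0, as were 61.3% of all probes. In RNA of whole tissue, fewer cells of a type and less RNA per cell cannot be told apart.

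**Figure D1:**
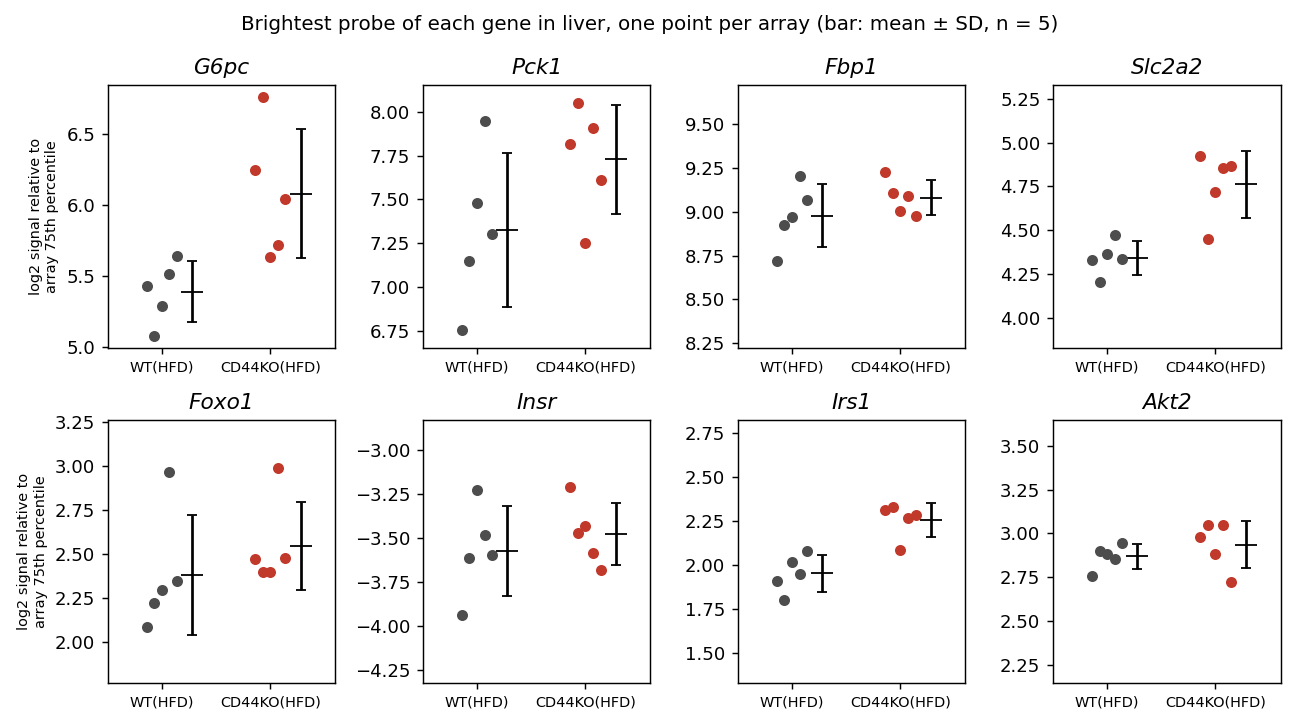
Levels of the brightest probe of each gene in liver (y axis: log2 processed signal minus the array's 75th percentile, axis ranges differ between genes). Each point is 1 array, and the bar beside a group is the mean ± SD of 5 arrays. The genotypes do not overlap for Irs1, cross by 1 array for Slc2a2 and touch for G6pc.

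Slc2a2, the low-affinity glucose carrier GLUT2 of hepatocytes, had levels of 4.33, 4.21, 4.36, 4.47 and 4.34 in WT(HFD) replicates 1 to 5 and of 4.92, 4.45, 4.72, 4.85 and 4.87 in CD44KO(HFD) replicates 1 to 5. All 5 CD44KO(HFD) arrays lay above the WT(HFD) mean, and only CD44KO(HFD) replicate 2 fell below the highest WT(HFD) array. The log2 fold change was 0.42 (SE 0.10, a 1.34-fold rise, 95% interval 0.20 to 0.64) with an adjusted p of 0.0260, and the exact two-sided permutation test over the 252 relabellings gave p = 0.0159, where 0.0079 is the smallest it can give. With the slide as a block the adjusted p was 0.0285, and within the 3 slides the differences were 0.31, 0.46 and 0.56. Here and below, the last of the 3 liver slides held 1 array of each genotype. A dimmer probe of Slc2a2, at another place in the gene, did not overlap between genotypes, with 2.87 ± 0.06 in WT(HFD) and 3.09 ± 0.10 in CD44KO(HFD) (SD, n = 5, log2 fold change 0.22, adjusted p = 0.0638), where 11.7% of tested probes did not overlap and 7.5% did so with CD44KO(HFD) higher.

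Irs1, the docking protein that links the insulin receptor to phosphoinositide 3-kinase, had levels of 1.91, 1.80, 2.02, 1.95 and 2.08 in WT(HFD) replicates 1 to 5 and of 2.31, 2.33, 2.09, 2.27 and 2.29 in CD44KO(HFD) replicates 1 to 5. Every CD44KO(HFD) array lay above every WT(HFD) array, the closest pair being CD44KO(HFD) replicate 3 and WT(HFD) replicate 5. The log2 fold change was 0.31 (SE 0.08, a 1.24-fold rise, 95% interval 0.13 to 0.48), with an adjusted p of 0.0321 and an exact permutation p of 0.0079. With the slide as a block the adjusted p was 0.0380, and the differences within the 3 slides were 0.42, 0.19 and 0.29. The second Irs1 probe gave a log2 fold change of -0.03 (SE 0.41, 95% interval -0.93 to 0.88, adjusted p = 0.971). That interval holds the 0.31 of the brightest probe. The levels of the second probe lay between -4.58 and -3.58 on all liver arrays but WT(HFD) replicate 5, at -2.26. With the mean of both probes the Irs1 difference was 0.14 and no longer passed (adjusted p = 0.715).

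Both calls were fragile to single arrays. For Slc2a2 the adjusted p ran from 0.0221 to 0.0682 when each array was left out in turn and was above 0.05 without WT(HFD) replicates 1, 2 or 5 or CD44KO(HFD) replicates 1, 4 or 5, while the log2 fold change stayed between 0.38 and 0.50. For Irs1 it ran from 0.0160 to 0.0828 and was above 0.05 without WT(HFD) replicates 1 or 2 or CD44KO(HFD) replicates 1, 2, 4 or 5, with log2 fold changes between 0.27 and 0.35.

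G6pc, the catalytic subunit of glucose-6-phosphatase, had levels of 5.43, 5.08, 5.29, 5.51 and 5.64 in WT(HFD) replicates 1 to 5 and of 6.25, 6.76, 5.64, 5.72 and 6.04 in CD44KO(HFD) replicates 1 to 5. The means were 5.39 ± 0.22 and 6.08 ± 0.45 (SD, n = 5), all 5 CD44KO(HFD) arrays lay above the WT(HFD) mean, and the groups touched at CD44KO(HFD) replicate 3 and WT(HFD) replicate 5. The log2 fold change of 0.69 (SE 0.21, 1.62-fold, 95% interval 0.24 to 1.15) had an adjusted p of 0.0505 and an exact permutation p of 0.0159. It passed with the slide as a random block (adjusted p = 0.0399) and without CD44KO(HFD) replicate 3 (adjusted p = 0.0263), and not with the slide as a fixed block (adjusted p = 0.0654). The difference was 0.95, 0.30 and 0.96 within the 3 slides. The study, which lists quantitative PCR primers for G6pase and Foxo1, reports no significant change of either in liver.

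Pck1, the cytosolic carboxykinase, was spread more widely among WT(HFD) arrays, at 6.75, 7.15, 7.48, 7.95 and 7.30, than among CD44KO(HFD) arrays, at 7.82, 8.05, 7.25, 7.91 and 7.61. The groups overlapped, and the log2 fold change of 0.40 (SE 0.22, 95% interval -0.09 to 0.89) had an adjusted p of 0.234. Fbp1 differed by 0.10 (SE 0.10, 95% interval -0.11 to 0.32, adjusted p = 0.495), and its sign turned under quantile normalization (-0.062) and under another background correction (-0.022).

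Foxo1 lay at 2.08, 2.22, 2.29, 2.97 and 2.34 in WT(HFD) liver and at 2.47, 2.40, 2.40, 2.99 and 2.48 in CD44KO(HFD) liver. Replicate 4 was the highest array of each genotype, on the second Foxo1 probe too, and these 2 arrays shared a slide with both replicates 2, which were not high. The cause of the high replicate 4 values was not tested. The log2 fold change was 0.16 (SE 0.18, 95% interval -0.23 to 0.56, adjusted p = 0.554) by the brightest probe and 0.05 by the other. Insr, read by 1 dim probe at -3.57 ± 0.26 in WT(HFD) and -3.48 ± 0.18 in CD44KO(HFD) (SD, n = 5), differed by 0.10 (SE 0.13, adjusted p = 0.662).

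Akt2, the Akt kinase most tied to insulin's metabolic effects, gave different answers by its 2 probes. On the brightest, the arrays read 2.76, 2.90, 2.88, 2.85 and 2.95 in WT(HFD) and 2.98, 3.05, 2.88, 3.05 and 2.73 in CD44KO(HFD), with a log2 fold change of 0.07 (SE 0.08, 95% interval -0.11 to 0.25, adjusted p = 0.599) whose sign turned under another background correction (-0.0375). On the dimmer probe they read 1.16, 0.99, 0.91, 0.78 and 1.06 in WT(HFD) and 1.36, 1.28, 1.41, 1.48 and 1.55 in CD44KO(HFD), without overlap. That probe rose by 0.44 (SE 0.09, a 1.35-fold rise, adjusted p = 0.0179, exact permutation p = 0.0079), and the mean of both passed as well (0.25, adjusted p = 0.0309). The rule had fixed the brightest probe, so Akt2 is not counted among the genes that rose.

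**Figure D2:**
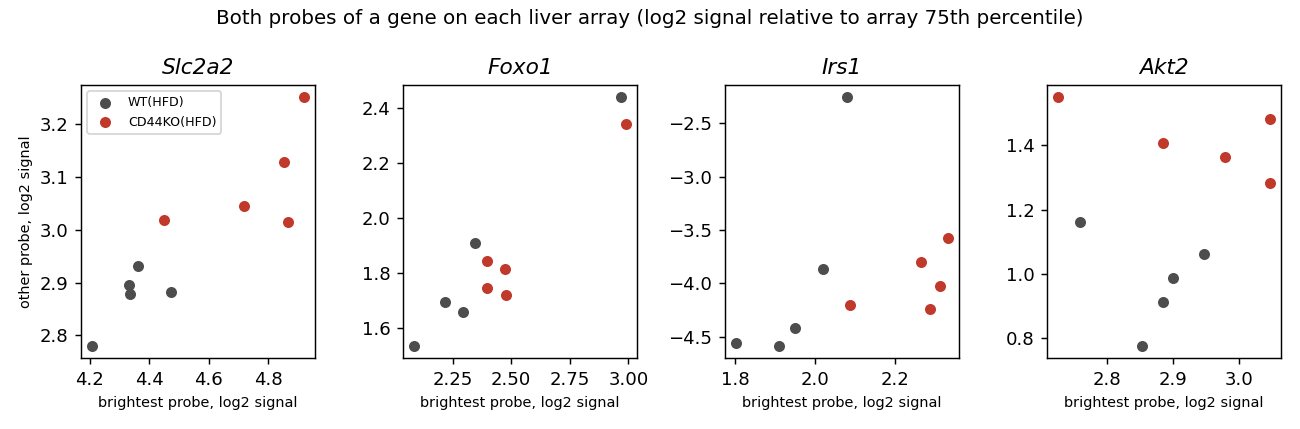
Levels of the brightest probe (x axis) against the other probe (y axis) of the 4 genes read by 2 probes, for the 10 liver arrays (log2 processed signal minus the array's 75th percentile, WT(HFD) in grey, CD44KO(HFD) in red). Genotypes do not overlap along the y axis for Slc2a2 and Akt2 and along the x axis for Irs1, and replicate 4 of both genotypes is the pair at upper right for Foxo1.

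The probes of Irs1 and Akt2 are shown by their first 30 bases, 5′ to 3′, from the array files, each probe being 60 bases long. On the files' build mm7 the brightest Irs1 probe lies at chr1:82447810-82447869 and the other at chr1:82451682-82451741. The brightest Akt2 probe lies at chr7:24558143-24558202, and the other spans chr7:24556257-24556397, longer than the probe on the genome. The files do not state exon or UTR for any of them. The brightest Irs1 probe carried the accession AK136875 of a cDNA clone, and the other the RefSeq accession NM_010570.
Irs1, brightest probe: tacccccaattctgtctggtacttagaatt
Irs1, other probe: aatgaatgcttaaaacaaggctaaaaagag
Akt2, brightest probe: ggaagccaaccttggctgttacacatctca
Akt2, other probe: gtcatggagcatagattcttcctcagcatc

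Some markers of other cells differed between genotypes in liver, where 5.75% of all tested probes were called lower and 7.85% higher. Of 6 fibroblast and stellate markers 5 were called lower. The summed linear level of the 6 was 101.0 to 155.7 in WT(HFD) and 64.0 to 98.7 in CD44KO(HFD), in units of the array's 75th percentile. Of 6 T cell markers 4 fell and the other 2 were higher without a call. The summed T cell level ran from 1.49 to 2.64 in WT(HFD) (median 1.59) and from 1.25 to 1.75 in CD44KO(HFD) (median 1.68). Of 7 macrophage markers 2 were called lower, and without regard to the call 5 were lower and 2 higher. The summed macrophage level ran from 48.2 to 110.1 in WT(HFD) and from 40.4 to 120.2 in CD44KO(HFD). Of 7 hepatocyte markers 1 was called higher (Cyp2e1), with a list median of 0.18, and without regard to the call 6 were higher and 1 lower. The summed hepatocyte level was 1618 to 2061 in WT(HFD) and 2021 to 2245 in CD44KO(HFD). All 7 hepatocyte markers were well above background on arrays of both genotypes. The adipocyte marker Lep was not well above background on any liver array. The summed adipocyte markers ran from 73.7 to 102.8 in WT(HFD) liver and from 6.38 to 62.6 in CD44KO(HFD) liver. Only 3 of these 7 markers were tested there, 1 higher and 2 lower, with 1 called lower. Adipoq lay between -7.17 and -3.46 on the liver arrays, so it added little to this sum. The list holds Cidec, which the study reports as a lipid storage gene lower in CD44KO(HFD) liver. The sum is therefore not read as a measure of adipocytes. The part of these marker differences in the values of Slc2a2, Irs1 and G6pc was not tested.

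**Figure D3:**
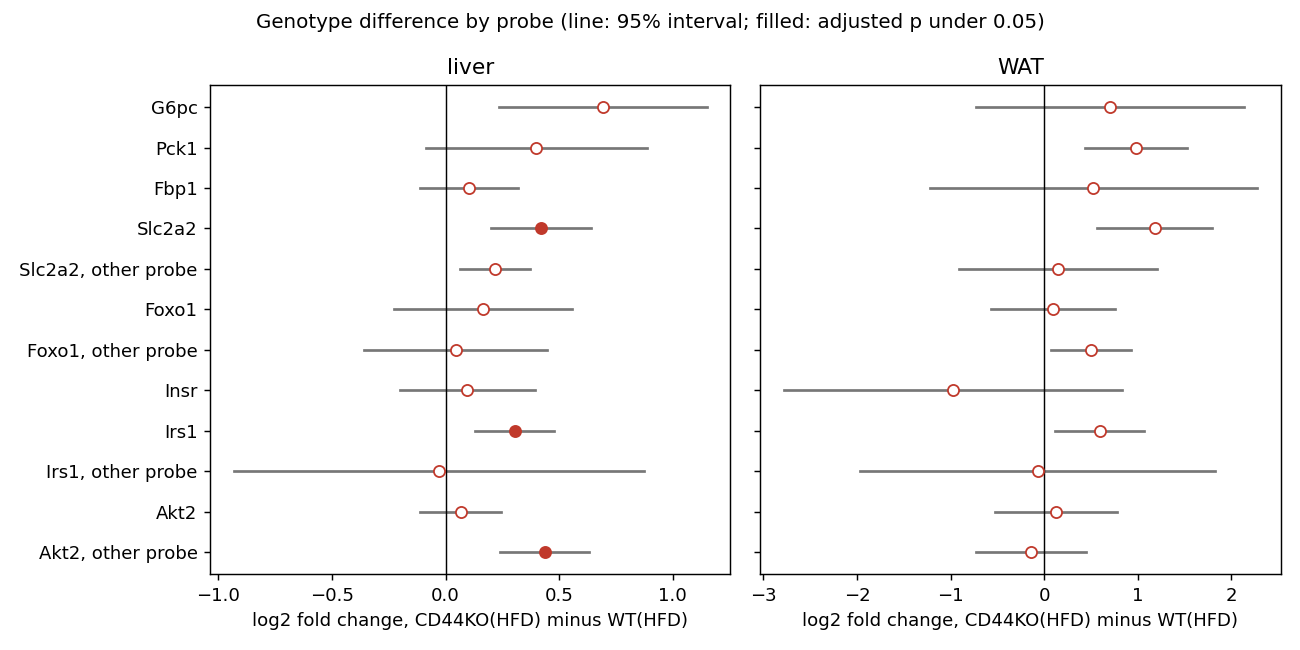
Log2 fold change, CD44KO(HFD) minus WT(HFD), of the 12 probes in liver and WAT (x axes differ), with 95% intervals from limma (5 arrays a group). Filled points had an adjusted p under 0.05. In liver these are Slc2a2, Irs1 and the other probe of Akt2, and in WAT there are none.

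In WAT, none of the 8 genes passed the test, where 11 of 27654 probes did (0.0398%). By limma without adjustment 3 of the 8 had p under 0.05, as had 14.9% of all tested probes, and Pck1 and Slc2a2 did not overlap between genotypes, as did 6.18% of tested probes, 4.1% with CD44KO(HFD) higher. The log2 fold changes ran from -0.97 to 1.18 with a median of 0.56, beside -0.06 over all tested probes, and 7 of 8 were above 0 against 44.7% of probes. These summaries depended on WT(HFD) replicate 1. Without it and with the filter set again, Foxo1 (-0.11), Insr (-0.094) and Akt2 (-0.039) were below 0 and the other genes above, Slc2a2 being highest at 1.16. The median over all tested probes was then 0.038.

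Pck1 lay at 3.66, 4.92, 3.86, 4.34 and 4.63 in WT(HFD) replicates 1 to 5 and at 5.38, 5.07, 5.50, 5.20 and 5.15 in CD44KO(HFD) replicates 1 to 5, so every CD44KO(HFD) array was higher. The log2 fold change was 0.98 (SE 0.24, 1.97-fold, 95% interval 0.44 to 1.52), with an adjusted p of 0.171 and an exact permutation p of 0.0079. It was 1.11 and 1.03 within the 2 slides that held both genotypes, and 0.82 (adjusted p = 0.145) without WT(HFD) replicate 1. Adipocyte markers were higher beside it, 7 of 7 with a median of 0.83 and none called, and their summed level was 257.5 to 523.0 in WT(HFD) and 502.0 to 837.0 in CD44KO(HFD). The lowest of these was WT(HFD) replicate 1, and without it the WT(HFD) range began at 433.1 and the median was 0.64. Their part in the Pck1 value was not tested.

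Slc2a2 was dim in WAT, at -4.47, -4.33, -4.96, -3.51 and -4.65 in WT(HFD) and -3.13, -3.40, -2.64, -3.36 and -3.49 in CD44KO(HFD), and 1 WT(HFD) array, replicate 1, had it not well above background. The log2 fold change of 1.18 (SE 0.28, 2.27-fold) had an adjusted p of 0.168 and an exact permutation p of 0.0079, while the other probe differed by 0.15 (SE 0.48, adjusted p = 0.883). The difference was 0.55 and 2.0 within the 2 slides that held both genotypes. The slide with 2.0 held CD44KO(HFD) replicate 3 as its only CD44KO(HFD) array, and the slide with 0.55 held WT(HFD) replicate 1. The difference was 1.16 (adjusted p = 0.136) without WT(HFD) replicate 1 and with the filter set again. The other probe differed by 0.60 without that array. CD44KO(HFD) replicate 3 was the highest array for Slc2a2, G6pc and Fbp1 and also for the summed hepatocyte markers, which ran from 3.91 to 30.8 in WT(HFD) and from 9.87 to 41.8 in CD44KO(HFD) WAT, all 7 of them well above background on at least 1 array of each group. Neither end of the WT(HFD) range was replicate 1. The part of these hepatocyte transcripts in the values of Slc2a2, G6pc and Fbp1 was not tested.

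G6pc ran from -5.27 to -2.28 in WT(HFD) and from -3.90 to -1.23 in CD44KO(HFD), and Fbp1 from -3.05 to 1.26 and from -0.66 to 1.41. Their log2 fold changes were 0.70 (SE 0.64, adjusted p = 0.598) and 0.53 (SE 0.78, adjusted p = 0.742), and both turned negative within 1 slide (-0.37 and -0.36). WT(HFD) replicate 3 was the lowest array for both, and without it G6pc differed by 0.25 and Fbp1 by -0.19. Without WT(HFD) replicate 1 the differences were 0.997 for G6pc and 0.36 for Fbp1.

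In the insulin relay of WAT, Irs1 lay at 1.22, 2.18, 1.32, 2.02 and 1.63 in WT(HFD) and at 2.50, 2.01, 2.32, 2.14 and 2.36 in CD44KO(HFD). All 5 CD44KO(HFD) arrays exceeded the WT(HFD) mean but the groups overlapped, with a log2 fold change of 0.59 (SE 0.21, 95% interval 0.12 to 1.06), an adjusted p of 0.257 and an exact permutation p of 0.0397. Without WT(HFD) replicate 1 the Irs1 difference was 0.48 (adjusted p = 0.308). Insr differed by -0.97 (SE 0.81, adjusted p = 0.569), which rested on WT(HFD) replicate 1 at -1.24, the other 4 WT(HFD) arrays lying between -6.11 and -5.23, and without that array the difference was -0.094. Foxo1 (0.09, SE 0.30) and Akt2 (0.13, SE 0.29) did not pass, and both differences turned sign under quantile normalization and without WT(HFD) replicate 1. The second Foxo1 probe gave 0.50 (SE 0.19, adjusted p = 0.274), with all 5 CD44KO(HFD) arrays above the WT(HFD) mean, and 0.36 without WT(HFD) replicate 1. The second probes of Irs1 (-0.072, SE 0.85) and Akt2 (-0.14, SE 0.26) did not pass, and without that array they differed by 0.82 and -0.26. On the brightest Foxo1 probe WT(HFD) replicate 1, at 0.78, and CD44KO(HFD) replicate 3, at 0.77, were far below the rest.

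**Figure D4:**
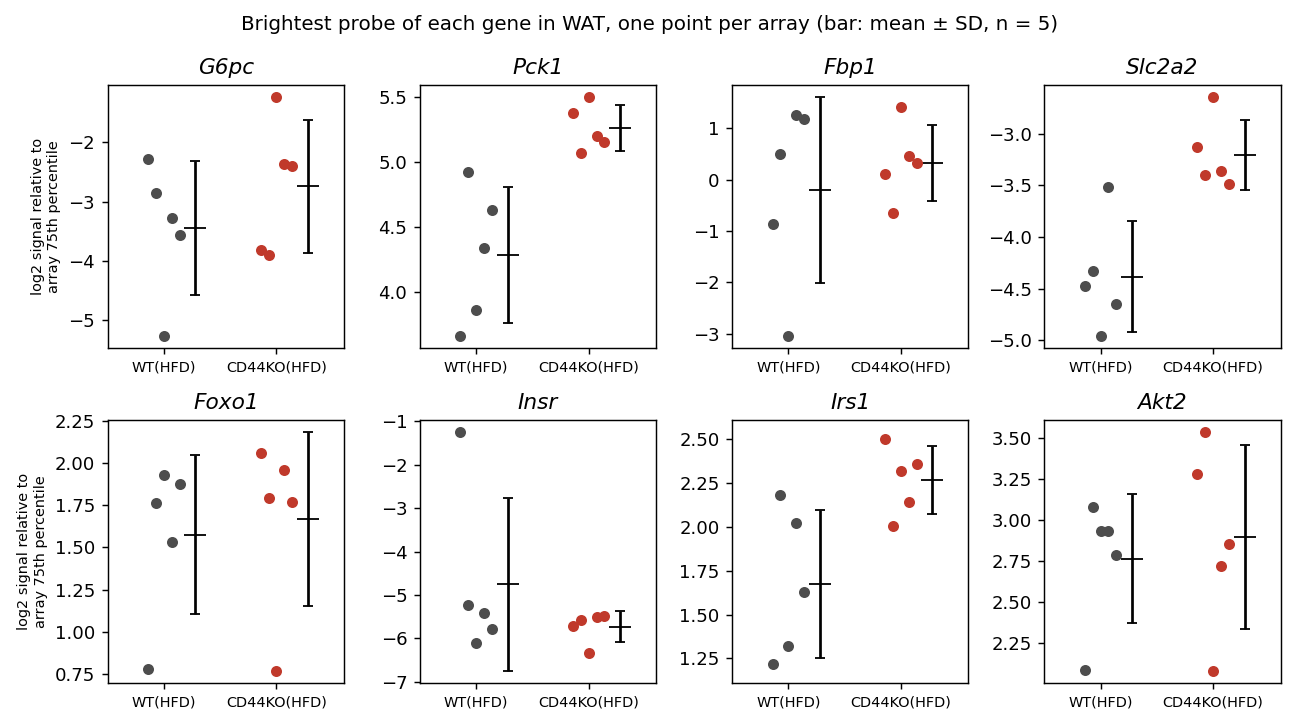
Levels of the brightest probe of each gene in WAT (y axis: log2 processed signal minus the array's 75th percentile, axis ranges differ between genes). Each point is 1 array, and the bar is the mean ± SD of 5 arrays. The genotypes do not overlap for Pck1 and Slc2a2, and 1 WT(HFD) array stands at -1.24 for Insr.

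The genotype effect was not shown to differ between tissues for any of the 8 genes by the interaction term of a fit of all 20 arrays, which 1.15% of 28989 probes passed. The nearest was Slc2a2, whose difference was smaller in liver than in WAT by 0.76 on the log2 scale (SE 0.30, 95% interval of liver minus WAT -1.39 to -0.13, adjusted p = 0.222). It passed when WT(HFD) WAT replicate 4 was left out (adjusted p = 0.0433). The other Slc2a2 probe gave a liver minus WAT value of 0.068 (SE 0.50, adjusted p = 0.959). For Pck1 liver minus WAT was -0.58 (SE 0.34, adjusted p = 0.418) and for G6pc -0.01 (SE 0.71, adjusted p = 0.995), an interval of -1.50 to 1.48.

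By tissue, the genes of glucose output were far higher in WT(HFD) liver than in WT(HFD) WAT, and those of the insulin relay had smaller differences, with calls that depended on single arrays or settings. The log2 difference was 9.18 for Fbp1, 8.84 for G6pc, 8.73 for Slc2a2 and 3.05 for Pck1, and these 4 passed, where 70.5% of probes passed and 36.2% did so as higher in liver. Foxo1 was higher in liver by 0.81 (SE 0.25, adjusted p = 0.00855). This direction rests on the scaling, as the unscaled Foxo1 signal was 2123 to 3850 in WT(HFD) liver and 4645 to 9505 in WT(HFD) WAT. The 75th percentile of the arrays was 433 to 575 in WT(HFD) liver and 1649 to 2708 in WT(HFD) WAT. Irs1 (0.28, 95% interval -0.06 to 0.61, adjusted p = 0.129), Akt2 (0.10, -0.36 to 0.57, adjusted p = 0.685) and Insr (1.18, -0.11 to 2.47, adjusted p = 0.0942) did not pass. Insr did so without WT(HFD) WAT replicate 1, at 2.06, and with both other settings run, normexp background correction (1.04, adjusted p = 0.0440) and the array median (1.28, adjusted p = 0.00452). Irs1 did so without WT(HFD) WAT replicate 2 (0.40, adjusted p = 0.0228). Among the 4 groups the order for G6pc, Pck1, Fbp1 and Slc2a2 was CD44KO(HFD) liver, WT(HFD) liver, CD44KO(HFD) WAT and WT(HFD) WAT, with neighbours of the same tissue differing past the threshold for Slc2a2 in liver alone.

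Genes of the same pathways were read from 7 lists, apart from the 9 genes above. In liver 13 of 126 tested genes passed, 9 higher and 4 lower, which is 10.3% beside 13.6% of all probes. In WAT none of 130 passed. Below, a count of listed genes that rose or fell is a count of genes that passed. The values of the fibroblast, T cell and macrophage markers given above were measured on the same liver arrays.

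**Figure D5:**
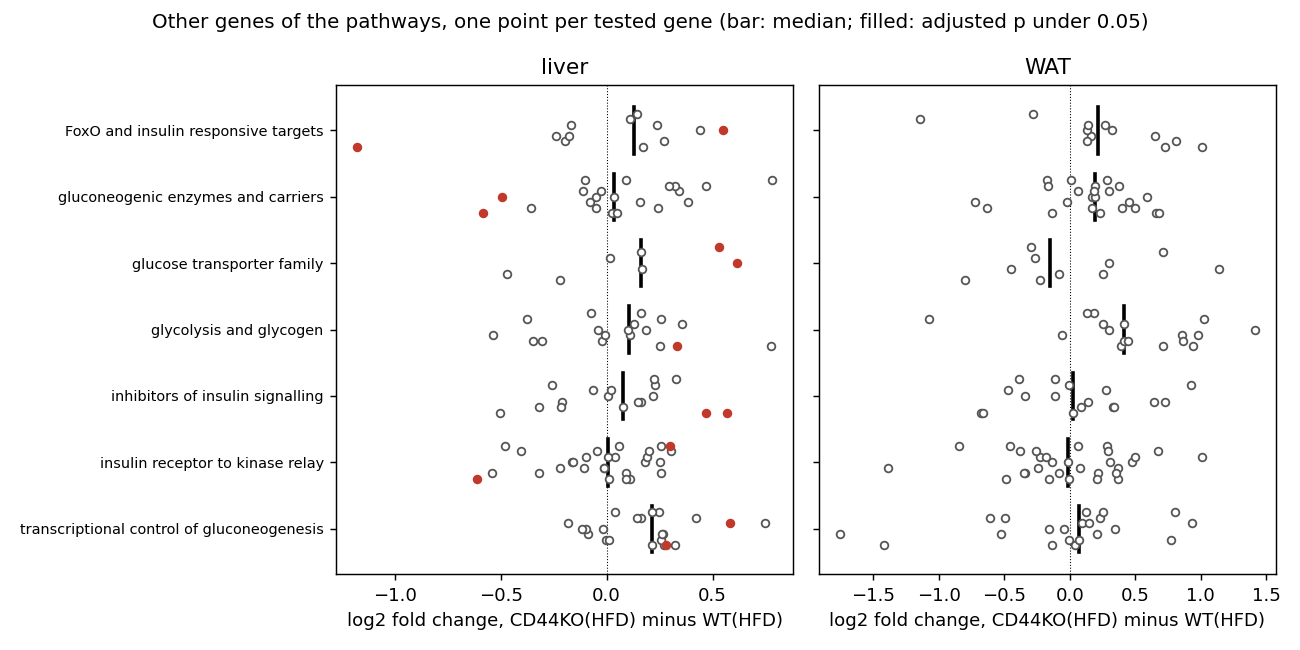
Log2 fold change, CD44KO(HFD) minus WT(HFD), of each tested gene of 7 pathway lists in liver and WAT (x axes differ). Black bars are list medians, and the filled points are the genes with an adjusted p under 0.05, 13 in liver and none in WAT.

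Enzymes and carriers of gluconeogenesis did not move together in liver, with a median of 0.04 over 22 tested genes. None was called higher and 2 were called lower, while without regard to the call 13 were higher and 9 lower. Pck2, the mitochondrial carboxykinase, fell from 0.82 ± 0.21 to 0.24 ± 0.31 (SD, n = 5, log2 fold change -0.58, SE 0.16, adjusted p = 0.0381). Gpt2, an alanine aminotransferase that feeds pyruvate into the pathway, fell without overlap from 5.66 ± 0.25 to 5.17 ± 0.10 (-0.50, SE 0.12, adjusted p = 0.0269). Of 22 transcriptional regulators 2 rose, with a list median of 0.21. Crtc2, the CREB coactivator that glucagon switches on, read 1.37, 1.53, 1.55, 1.80 and 1.68 in WT(HFD) and 2.31, 2.20, 1.73, 2.34 and 2.28 in CD44KO(HFD), a rise of 0.58 (SE 0.13, adjusted p = 0.0214). Cebpa, a hepatocyte and adipocyte transcription factor, rose by 0.28 (SE 0.08, adjusted p = 0.0384), while Ppargc1a, a Foxo1 coactivator named here for its role, was at 0.38 in WT(HFD) and 0.39 in CD44KO(HFD).

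Between the insulin receptor and the kinases, 1 of 28 tested genes rose and 1 fell in liver, with a median of 0.01. Pik3r1, a regulatory subunit of phosphoinositide 3-kinase, read 1.32, 1.08, 1.28, 0.61 and 1.24 in WT(HFD) and 0.35, 0.17, 1.01, 0.57 and 0.37 in CD44KO(HFD), a fall of 0.61 on the log2 scale (SE 0.18, adjusted p = 0.0481). Tsc2, the brake on mTOR complex 1 that Akt releases, rose by 0.30 (SE 0.08, adjusted p = 0.0332) without overlap. Of 17 inhibitors of insulin signalling 2 rose, with a median of 0.08. Enpp1, a membrane enzyme that can bind the insulin receptor, rose without overlap from 2.71 ± 0.19 to 3.28 ± 0.18 (0.57, SE 0.12, adjusted p = 0.0184), and Phlpp1, a phosphatase of Akt, from -1.88 ± 0.11 to -1.41 ± 0.18 (0.47, SE 0.10, adjusted p = 0.0195).

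Among 12 genes that answer to FoxO factors or insulin 1 rose and 1 fell in liver, with a median of 0.13. Pdk4, which slows the entry of pyruvate into the citric acid cycle and is raised by fasting, read 1.34, 1.39, 1.45, 0.89 and 0.51 in WT(HFD) and -0.29, 0.22, 0.19, -0.44 and -0.00 in CD44KO(HFD). It fell by 1.18 on the log2 scale (SE 0.20, 0.442-fold, adjusted p = 0.0122) without overlap and passed with every array left out in turn. Srebf1, the insulin-induced activator of lipogenesis, rose by 0.55 (SE 0.16, adjusted p = 0.0448), and Igfbp1, a FoxO target named here for its role, differed by 0.11 (SE 0.32, adjusted p = 0.845). Of 7 other glucose transporters tested 2 rose in liver, the fructose carrier Slc2a5 by 0.62 (SE 0.17, adjusted p = 0.0412) and the urate carrier Slc2a9 by 0.53 (SE 0.12, adjusted p = 0.0229). Most of the 13 calls were as fragile as those of Slc2a2 and Irs1. With each of 10 arrays left out in turn, Enpp1 and Phlpp1 passed in 9 fits, both failing without WT(HFD) replicate 2. Slc2a9 passed in 7, Crtc2 in 6 and the remaining genes named here, Pdk4 aside, in 1 to 4.

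In WAT the medians of the lists were 0.19 for gluconeogenic enzymes, 0.07 for their regulators, 0.42 for glycolysis and glycogen, -0.01 for the relay, 0.02 for its inhibitors, 0.22 for FoxO and insulin targets and -0.15 for the transporters, beside -0.06 over all tested probes. Without WT(HFD) replicate 1 they were 0.15, 0.027, 0.34, -0.034, -0.080, 0.13 and 0.034 in the same order, beside 0.033 over all tested probes, so the sign turned for the inhibitors and the transporters. The study's own list of genes in WAT, which was drawn from these samples, includes members of the transporter family, so the transporter count there is not independent evidence. Mesothelial markers (5 of 5 lower, median -2.46) and T cell markers (6 of 6 lower, median -1.51) were lower beside these values, none called, and without WT(HFD) replicate 1 their medians were -2.37 (5 of 5 lower) and -1.26 (5 of 6 lower). Their part was not tested.

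Across the 10 liver arrays, the genes whose levels followed each member most closely among 17005 genes were U2af1 (Pearson r = 0.957), Hnrnpdl (0.956) and the transcript AK033152 (0.951) for G6pc, and Ltn1, Cyp2j5 and Sec14l4 (each 0.975) for Pck1. For Irs1 they were Trmo (0.984), Arf5 (0.976) and Rnf8 (0.972). These are the highest of many values over 10 arrays of 2 genotypes, scaled to the same percentile, and describe likeness of pattern only.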

How the data were processed

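Total RNA of liver and WAT was read on 20 Agilent mouse arrays with 1 dye. The authors deposited linear intensity values for every spot, made with Agilent Feature Extraction 9.5.3.1, both as scanner output and in a value table of the whole series, and the 2 are equal on 100% of spots. The software had subtracted a fitted spatial background and removed trends within each array, and nothing had been scaled between arrays. Its call of a signal well above background used a multiple of 13 background standard deviations.

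The level computed here is log2 of that intensity minus the array's 75th percentile, with control and outlier spots left out and spots of one probe averaged. This centring removes any shift common to all probes. Tested were the probes with that call on 3 or more of the 5 arrays in either genotype, 24689 for liver and 27654 for WAT. limma 3.58.1 (lmFit and eBayes, R 4.3.3) compared the genotypes within each tissue, p-values were adjusted by Benjamini-Hochberg with a threshold of 0.05, and contrasts between tissues came from all 20 arrays together. Each single gene also had an exact two-sided permutation test over 252 relabellings. Blocks used statmod 1.5.0, and the code was tested on simulated data. The number of arrays limits the precision.

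The members and lists were chosen with earlier results of these data known. The genes named are the members by their brightest probe, up to 4 called genes with the largest change from each pathway list and tissue, the 3 genes most like G6pc, Pck1 and Irs1 in liver, and Cd44. Ppargc1a, Igfbp1, Cyp2e1, Lep and Adipoq were added after their values were seen, and Cidec is named from the study's report. Irs2 had no probe and was not analysed here. A called gene that this rule names is not reported here. Symbols came from the files and, by accession, from RefSeq (22951 probes matched). Alternatives covered the background correction, scaling, filter, slide, replicate number, array weights, the deposited value table and leaving out each array. Leaving out WT(HFD) WAT replicate 1 with the filter set again, or that array together with CD44KO(HFD) WAT replicate 3, was chosen after seeing the data, as were the WAT list and second-probe values without the first of these. Of the remaining marker lists, endothelial markers had 5 tested and 0 called in each tissue, mesothelial markers 3 tested and 0 called in liver, and pancreas, kidney and epididymis markers at most 2 tested and 0 called.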

Additional observations from a re-analysis of the deposited data

Results flagged for a closer look

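In 32 groups of 5 arrays (8 genes, 2 tissues, 2 genotypes), 5 had a highest or lowest array whose gap to the next one was over 0.71 of the group's range, where chance flags about 1 group in 20. Foxo1 was at 2.99 in CD44KO(HFD) liver replicate 4, against 2.48 for the next array. Foxo1 was at 0.767 in CD44KO(HFD) WAT replicate 3, against 1.77. Insr was at -1.24 in WT(HFD) WAT replicate 1, against -5.23, and this is the array with 89.5% of its spots well above background. Insr was at -6.34 in CD44KO(HFD) WAT replicate 3, where it was not well above background, against -5.72. Irs1 was at 2.09 in CD44KO(HFD) liver replicate 3, against 2.27, and was there the CD44KO(HFD) array nearest to WT(HFD).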

How the results depend on the processing

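Precision is limited by 5 arrays a group and, for Insr, the second Irs1 probe and Slc2a2, G6pc and Insr in WAT, by signals near background. The number of probes called in liver, 3358, was 641 with normexp background correction (216 higher, 425 lower, against 1938 and 1420), 1027 with no filter on dim probes (449 higher, 578 lower), 665 in one fit of all 20 arrays (157 higher, 508 lower), and 858 to 4647 with 1 array left out (858 without WT(HFD) replicate 2, 4647 without CD44KO(HFD) replicate 3). In WAT the 11 probes became 35 with normexp, 19 with the array median for scaling, 3 with no filter, 1735 in one fit of all 20 arrays, 4 with the slide as a fixed block, 2850 with array weights, 3 to 19 with 1 array left out and 37 with WT(HFD) replicate 1 left out and the filter set again, chosen after seeing the data. The median change of all probes in WAT was -0.06, but 0.42 with array-median scaling, 0.11 with quantile normalization and -0.13 with normexp. The 334 probes of the interaction became 84 to 582, and the 20432 of the tissue contrast 19630 to 22177, with 1 array left out. The cause of these moves was not tested.

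The values did not show that replicate numbers paired the samples, and the labels do not state a pairing. Same-numbered arrays of both genotypes had correlations of -0.038 to 0.42 in liver and -0.21 to 0.092 in WAT. Liver replicate 4, at 0.42, was the only number whose best match was its own number. With the replicate number as a block, 1329 probes were called in liver and 3 in WAT, and Irs1 in liver had an adjusted p of 0.0996.

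In liver, Slc2a2 and Irs1 kept their direction throughout and lost the call with normexp (0.29 and 0.21), no filter (adjusted p = 0.0650 and 0.0852) and one fit of all arrays (0.366 and 0.387), and Slc2a2 also with quantile normalization (adjusted p = 0.0529). Of the 13 pathway genes called in liver, Pdk4 and Pck2 alone passed with normexp. G6pc passed with array-median scaling (adjusted p = 0.0493), the filter on all 10 arrays (0.0394) and array weights (0.0382). It did not pass with normexp (adjusted p = 0.257), quantile normalization (0.0886), no filter (0.106), the replicate block (0.106) or one fit of all arrays (0.599). With each liver array left out in turn G6pc passed in 1 of 10 fits, with an adjusted p of up to 0.118. In WAT, Pck1, Slc2a2 and Irs1 passed in one fit of all 20 arrays (adjusted p = 0.0259, 0.00781 and 0.0366), and Pck1 and Slc2a2 with array weights (0.0348 and 0.0384), while the other settings left them above the threshold.

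Changes of sign were all in members that had not passed. In liver they were Fbp1 with normexp (-0.022) and quantile normalization (-0.062), and Akt2 with normexp (-0.0375) and within 1 slide (-0.048). In WAT they were G6pc (-0.37) and Fbp1 (-0.36) within 1 slide, and Foxo1 with quantile normalization (-0.011), with the slide as a block (-0.11), within 1 slide (-1.09) and with WT(HFD) replicate 1 left out and the filter set again (-0.11). Akt2 in WAT turned with quantile normalization (-0.030), array weights (-0.12), within 1 slide (-0.85), as a mean of its probes (-0.0052) and with WT(HFD) replicate 1 left out and the filter set again (-0.039), and Insr without WT(HFD) replicate 1 and CD44KO(HFD) replicate 3 (0.059). With 1 array left out, WAT values ran from -0.19 to 0.89 for Fbp1, from -0.11 to 0.32 for Foxo1 and from -0.039 to 0.33 for Akt2. The interaction turned for G6pc (0.16) and Foxo1 (-0.0028) with normexp and for Akt2 (0.031) with quantile normalization, and with 1 array left out ran from -0.30 to 0.44 for G6pc, -0.79 to 0.29 for Fbp1, -0.15 to 0.27 for Foxo1 and -0.27 to 0.11 for Akt2. The tissue contrast of Akt2 ran from -0.065 to 0.18. Foxo1 lost the tissue contrast with array-median scaling (adjusted p = 0.0814).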
